A study of Mus musculus with 9 samples.

Results

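Ighg3 encodes the constant region of the immunoglobulin G3 heavy chain, 1 of the antibody classes that a B cell can switch to before it becomes a plasma cell. It was represented on the arrays by 1 feature of 11552, the feature whose platform annotation names Ighg3 alone, and that feature carried a value on all 9 arrays. The gene was selected on the deposited ratios themselves, for how they varied with group and dye layout, so those values are given as a description and carry no test. Each array compared a castrated C57BL/6 mouse with a matched sham-operated mouse, the castrated animal having been operated on at 7 weeks. The 3 groups were old bone marrow (59 weeks), young bone marrow (17 weeks) and young bone (17 weeks), with 3 arrays, each of its own mouse pair, per group. The castrated mouse was labelled with Cy3 on 3 arrays (old marrow replicate 2, young marrow replicate 2 and young bone replicate 3) and with Cy5 on the other 6. The design text mentions separating marrow from bone for young mice, the extraction protocol speaks of pulverized bone for every sample, and a ratio within an array carries no level, so the labelled tissues could not be checked against their markers. Young marrow and young bone may come from the same mice, which the labels do not state.

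In the bone marrow, B cells arise from progenitors that need interleukin-7, rearrange their immunoglobulin genes and leave as immature cells. Plasma cells are the end of the same lineage: they return to the marrow after activation elsewhere and secrete antibody, so that their transcripts of heavy chain, light chain and joining chain are very abundant. Ighg3 lies in the heavy chain constant cluster between Ighd and Ighg1 in the reference gene table of assembly GRCm38.p6, and class switching joins it to a rearranged variable segment. The probe's sequence was not used here. Whether transcripts of the related constant genes, or variable segments, bind to this feature cannot be told apart from Ighg3 itself.

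All values are log ratios read as log2, with 0 meaning equal signal in both mice. The labels name the castrated mouse against the sham-operated mouse on all 9 arrays, so a ratio of castrated over sham is the likely direction, and it is the one used unless stated. The other possibility, called the channel reading, is that the file holds Cy5 over Cy3, in which case the sign of the 3 arrays with the castrated mouse in Cy3 has to be turned. On the other 6 arrays both readings are the same. Each array gave a value for 8290 to 10995 features. Old marrow replicate 1 had the widest ratios, with an SD of 0.4545 over its features against 0.192 to 0.294 on the other 8 arrays, and without it the old marrow mean of Ighg3 below was 0.885 in place of 0.60, its fitted average 0.56 in place of 0.55 and its gap between layouts 1.56 in place of 1.51. Pairs of arrays correlated at -0.29 to 0.55 over all features. Precision is limited by there being 9 arrays.

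Within each group the ratio of Ighg3 was highest on the array with the castrated mouse in Cy3. In old marrow it was 0.03, 1.42 and 0.35 on replicates 1, 2 and 3. In young marrow it was 0.27, 0.58 and -0.53, and in young bone -1.33, -0.02 and 1.92. The second value in old and young marrow and the third in young bone are the Cy3 arrays, and with their sign turned they are the lowest of their groups (-1.42, -0.58 and -1.92). As deposited they averaged 1.31 ± 0.68 (SD, n = 3), against -0.205 ± 0.63 (SD, n = 6) on the arrays with the castrated mouse in Cy5, and the lowest of the Cy3 arrays (0.58) stood above the highest of the Cy5 arrays (0.35). In a ratio of whole-tissue RNA, a change in the number of cells of a type and a change in RNA per cell cannot be told apart.

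The gap between the layouts, Cy3 arrays minus Cy5 arrays, was 1.51 in the deposited ratios, where it ranked 1 in absolute size among 7544 features measured on all 9 arrays, whose median absolute gap was 0.12. Under the channel reading it was -1.10 and ranked 53, with a median of 0.13, so the rank holds for the castrated-over-sham direction alone. In the deposited ratios, the next feature had no gene name in the annotation and a gap of -1.12, and the next named genes were Angptl1, a secreted angiopoietin-like protein (-0.95), 2210418O10Rik (-0.75), Malat1, a nuclear noncoding RNA (-0.74), and Hsd3b2, a steroid dehydrogenase (-0.73). Among named genes with a positive gap Mki67, a marker of dividing cells, came next at 0.72. All 3 Cy3 arrays stood above all 6 Cy5 arrays for 155 features (2.05%), and all below for 64 (0.848%). Separation by layout in the deposited ratios was thus shared with many other features.

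**Figure D1:**
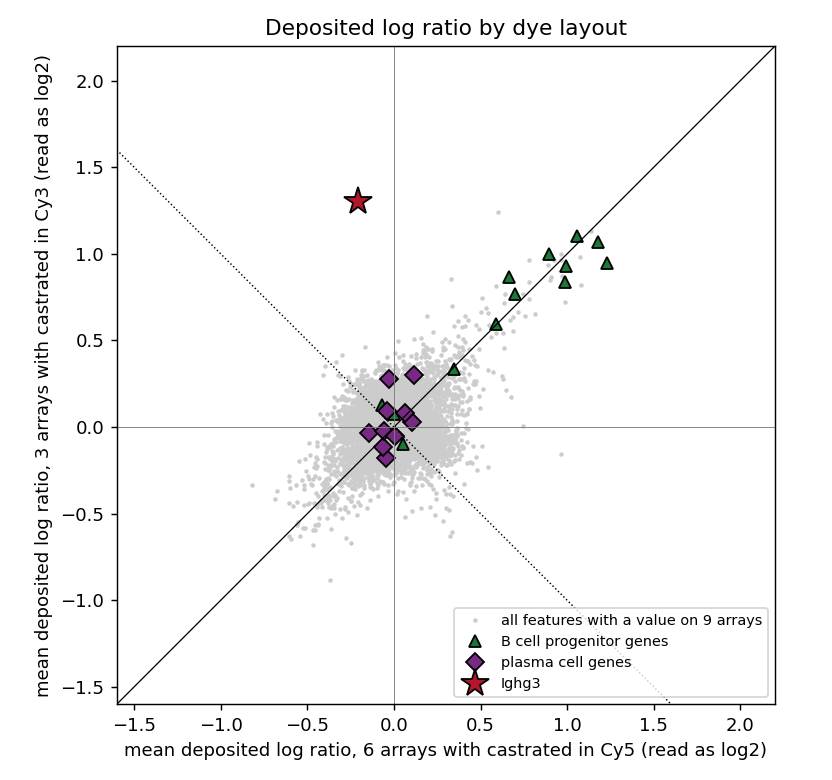
Mean deposited log ratio (read as log2) on the 3 arrays with the castrated mouse in Cy3 (vertical axis) against the mean on the 6 arrays with it in Cy5 (horizontal axis), for each of the 7544 features with 9 values; the solid line marks equal means and the dotted line equal means of opposite sign. Ighg3 (star) stands alone at 1.31 against -0.205, while most B cell progenitor genes (triangles) lie far up the solid line and the plasma cell genes (diamonds) lie near 0.

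The gap was seen within each group. Old marrow replicate 2 exceeded the mean of its 2 group mates by 1.23, young marrow replicate 2 by 0.71 and young bone replicate 3 by 2.595. Leaving out any 1 array kept the overall gap between 1.21 and 1.88. With 1 Cy3 array per group, a property of a layout and a property of those 3 mouse pairs cannot be told apart.

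On several arrays Ighg3 was among the most extreme features, and on the Cy3 arrays a turned sign would put it at the other end. It had the highest of 10916 ratios on young bone replicate 3 and was exceeded by 2 of 9170 features on old marrow replicate 2. On young marrow replicate 2 it was exceeded by 78 features (0.802%). In the other direction, 8 of 10310 features were lower on young bone replicate 1, and 1.40% of features were lower on young marrow replicate 3. On old marrow replicate 1 and young bone replicate 2 it lay inside the bulk, with 64.3% and 51.4% of features below it.

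By group, Ighg3 averaged 0.60 ± 0.73 in old marrow, 0.11 ± 0.57 in young marrow and 0.19 ± 1.64 in young bone (SD, n = 3 each). Every group's SD was as large as its mean or larger, and neighbours in that order did not differ beyond their spread. The value spanned 3.25 over the 9 arrays, and 2.27 under the channel reading. Its pooled SD within groups was 1.08, ranking 2 of 7544 features with a median of 0.19, and under the channel reading 0.83, ranking 47 with a median of 0.22. Both contain the difference between layouts, since each group holds 1 Cy3 array. Between the 2 Cy5 arrays of each group, which are the same under both readings, the pooled SD was 0.64, ranking 91, against a median of 0.19.

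Neither reading gave Ighg3 1 sign throughout. As castrated over sham it was positive on 6 of 9 arrays and negative on 3. Under the channel reading it was positive on 3 and negative on 6, with group means of -0.35 ± 0.94 in old marrow, -0.28 ± 0.48 in young marrow and -1.09 ± 0.97 in young bone (SD, n = 3 each). A linear model with a term for each group and 1 for the dye layout, fitted with limma to all features, gave an average over the groups of 0.55 (SE 0.18) as castrated over sham and of -0.76 (SE 0.15) under the channel reading. The 6 arrays with a single layout averaged -0.205, so the sign of the average depends on the reading and on which arrays enter. These are descriptions, and no test of Ighg3 is given. Over all features, 359 of 8885 (4.04%) passed an adjusted p of 0.05 in the average as castrated over sham, and under the channel reading limma passed 0 of 8885 features (0%), 418 of which had an unadjusted p under 0.05. The layout term passed by limma for 0 of 8885 features as castrated over sham and for 231 under the channel reading. The average and the layout term change places between the readings. Which reading holds was not tested, and without it a dye effect on this feature and a castration effect cannot be told apart.

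**Figure D2:**
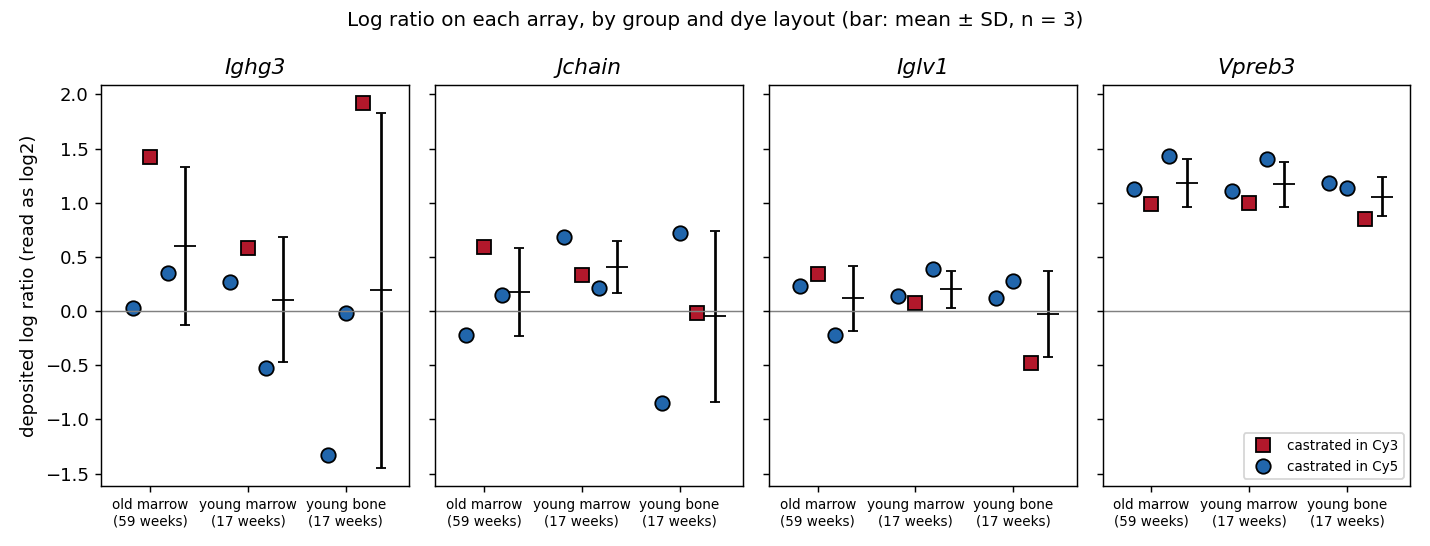
Deposited log ratio (read as log2, vertical axis) of Ighg3, the joining chain gene Jchain, the light chain gene Iglv1 and the B cell progenitor gene Vpreb3 on each array, by group; squares are arrays with the castrated mouse in Cy3, circles with it in Cy5, and bars are the group mean ± SD (n = 3). Ighg3 squares lie above the circles in every group, Jchain and Iglv1 scatter around 0 with no such order, and Vpreb3 lies between 0.85 and 1.43 on all 9 arrays.

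Other antibody genes on the array gave different values. Iglv1, a variable segment of the lambda light chain, was the only other immunoglobulin gene that a feature named alone. Features with several gene symbols were not searched. Iglv1 was 0.23, 0.34 and -0.22 in old marrow. It was 0.14, 0.07 and 0.39 in young marrow, and 0.12, 0.28 and -0.48 in young bone. Its lowest value fell on young bone replicate 3, the array with the highest Ighg3. Its gap between layouts was -0.18 and its average 0.07 (SE 0.09, limma adjusted p = 0.82).

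Jchain encodes the chain that joins IgM and IgA into polymers and is a marker of antibody-secreting cells. It was -0.22, 0.59 and 0.15 in old marrow, 0.68, 0.33 and 0.21 in young marrow, and -0.85, 0.72 and -0.02 in young bone. The lowest Jchain and the lowest Ighg3 fell on the same array, young bone replicate 1, while young bone replicate 3 had the highest Ighg3 and a Jchain ratio near 0. The average of Jchain was 0.21 (SE 0.15, limma adjusted p = 0.58), with a gap between layouts of 0.19, and its layouts overlapped. As a description over the 6 Cy5 arrays, r between Jchain and Ighg3 was 0.74 and rho 0.26, and r was 0.02 without young bone replicate 1 and young marrow replicate 3 (n = 4).

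Of the 27 plasma cell genes listed, 12 were on the array and 11 were tested. Only Slamf7 rose, a surface receptor of plasma cells that natural killer and other leukocytes also carry, at 0.62 (SE 0.10, limma adjusted p = 0.011, positive on 7 of 7 arrays with a value). That is 1 of 11 genes, against 2.01% of all features tested that were up. The call was lost under the channel reading (-0.09, limma adjusted p = 0.89), where 0 of 8885 features passed, so that loss is not particular to Slamf7. It was also lost on the Cy5 arrays alone (0.55, limma adjusted p = 0.13). The call was lost as well when any of 4 arrays was left out: young marrow replicate 2 (0.055), young bone replicate 3 (0.056), young marrow replicate 3 (0.069) and old marrow replicate 2 (0.074). With 1 array left out the value of Slamf7 stayed between 0.53 and 0.70.

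The other 10 plasma cell genes lay between -0.11 and 0.21, 5 above 0 and 5 below. Among them were Xbp1, the transcription factor of the secretory programme (-0.11), and Tent5c, a poly(A) polymerase that stabilises immunoglobulin messages (0.12). Edem1, which clears misfolded glycoproteins, stood at -0.09. The list median was 0.03, against -0.00 over all features tested, and per array it ran from -0.19 to 0.17. As a description, r between this per-array median and Ighg3 was 0.16 and rho 0.49 over the 6 Cy5 arrays. Over all 9 deposited ratios r was 0.42 and rho 0.70, and under the channel reading 0.17 and 0.37. Tent5c alone in the list had its 3 Cy3 arrays above its 6 Cy5 arrays (0.20, 0.34 and 0.29 against at most 0.14). Its gap between layouts was 0.31. That is 1 of the 10 plasma cell genes with a value on every array, against 2.05% of all such features. With 10 genes, this count does not set the list apart from all features.

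Secretory load was also described through the endoplasmic reticulum machinery that an antibody factory needs. Of 28 tested genes of protein translocation, folding and the unfolded protein response, 1 was up and 0 were down, against 2.01% and 2.03% of all features, so the count was near the background. This was Herpud1, a stress-induced membrane protein (0.26, SE 0.06, limma adjusted p = 0.044). Its call was lost without any 1 of 8 arrays, all but old marrow replicate 3, and on the Cy5 arrays alone (0.35, limma adjusted p = 0.090). Under the channel reading, where 0 of 8885 features passed, it stood at 0.09 (limma adjusted p = 0.89). With 1 array left out its value stayed between 0.23 and 0.29. Hsp90b1, a chaperone of the same compartment, stood at 0.21, Dnajc3 at -0.15 and the translocon subunit Sec61b at -0.14, none past the threshold. The list median was -0.02. Of the Fc receptor and complement genes listed, 1 of 14 was on the array, Fcer1g, the signalling chain shared by Fc receptors, at -0.28 (SE 0.09, limma adjusted p = 0.14).

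The B cell progenitor genes were set beside Ighg3 to ask whether plasma cell output follows them. Of 31 genes listed, 16 were on the array and tested, and 12 rose in the average as castrated over sham, against 2.01% of all features. Vpreb3, a partner of the pre-B cell receptor, was 1.13, 0.99 and 1.43 in old marrow, 1.11, 1.0 and 1.40 in young marrow, and 1.18, 1.14 and 0.85 in young bone. All 9 values lay above 0 and the groups overlapped, with an average of 1.09 (SE 0.06, limma adjusted p = 1.6e-05).

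The limma adjusted p of the 12 was at most 0.026. The other 11 ran from 0.34 for Blnk, an adaptor of the B cell receptor, to 1.13 for the transcription factor Bach2. They included Lef1, a transcription factor of pro-B cells (0.78), Sox4, needed for early B cell survival (0.73), Foxo1, which drives recombinase expression (0.59), and Tcf3, which encodes the E2A factors (0.43). Bcl11a (0.04), Btk (0.03), Ikzf1 (0.00) and Cd24a (-0.02) did not pass. The list median was 0.75. Under the channel reading 0 of 16 passed, as did 0 of all 8885 features, and the median was 0.00. On the 6 Cy5 arrays, where both readings give the same values, 10 of 16 passed with a median of 0.68, against 0.712% of all features up there. The other 2, Blnk (0.35, adjusted p = 0.11) and Tcf3 (0.40, adjusted p = 0.15), lost their calls on these arrays. Blnk also lost its call when old marrow replicate 2, young marrow replicate 2 or young bone replicate 3 was left out, with values of 0.31 to 0.37 over all arrays left out, and Tcf3 without any of these or young bone replicate 1, with 0.31 to 0.52. The remaining 10 kept theirs whichever array was left out.

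**Figure D3:**
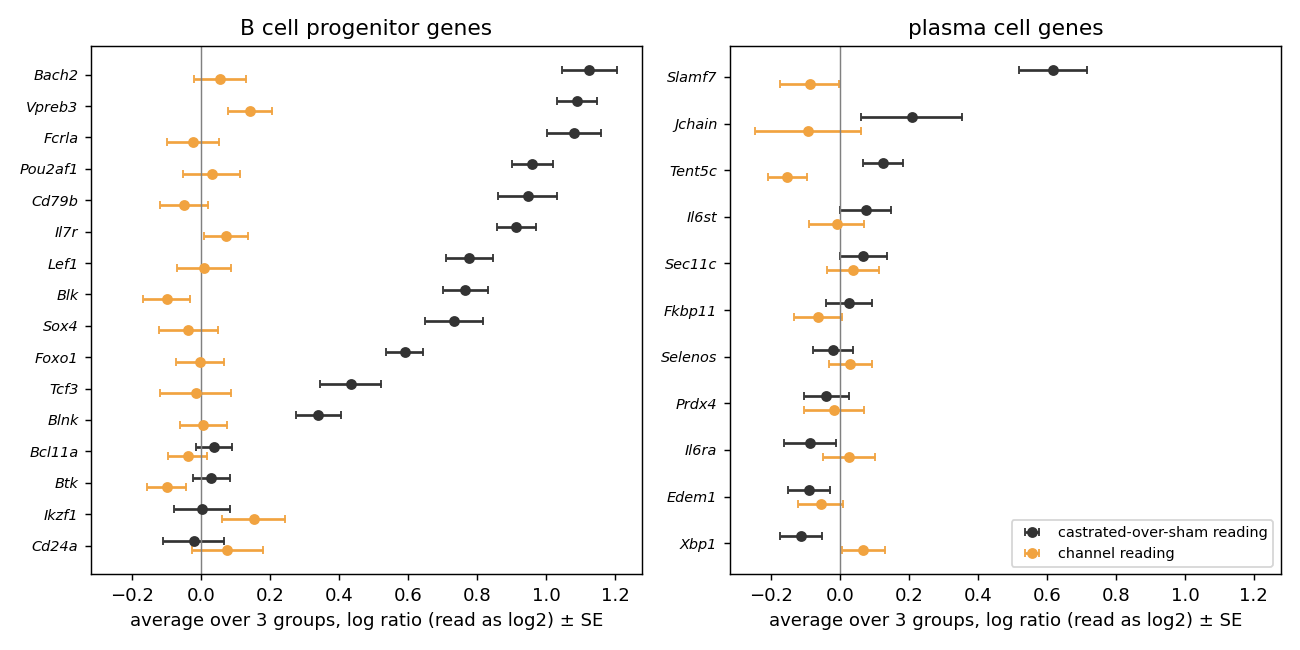
Average over the 3 groups (log ratio read as log2, horizontal axis) with its standard error for the 16 tested B cell progenitor genes (left) and the 11 tested plasma cell genes (right), as castrated over sham (black) and under the channel reading (orange). As castrated over sham 12 progenitor genes lie at 0.34 or above, whereas in the plasma cell panel Slamf7 alone does, and under the channel reading both lists stay between -0.15 and 0.15.

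In the deposited ratios most progenitor genes kept 1 sign over both layouts. Of the 13 with a value on every array, 10 were positive on 9 of 9 arrays, against 1.83% of all such features. Their gaps between layouts ran from -0.29 for Vpreb3 to 0.20 for the kinases Blk and Btk. For 0 of 13 did the Cy3 arrays all stand above the Cy5 arrays, against 2.05% of all such features. For 1, Vpreb3, they all stood below, against 0.848%. With 13 genes, the counts of separated layouts do not set the list apart from all features.

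By group, 9 of the 16 progenitor genes were up in old marrow, 10 in young marrow and 7 in young bone, against 0.608%, 0.732% and 0.225% of all features. The list medians were 0.69, 0.84 and 0.67. For the difference between groups 0 of 16 passed by limma in old marrow minus young marrow, young marrow minus young bone or old marrow minus young bone. Over all features, 0, 0 and 1 passed (0%, 0% and 0.0113%), while 1292, 455 and 589 had an unadjusted p below 0.05. Fitted values of Ighg3 were 0.85, 0.36 and 0.44 in old marrow, young marrow and young bone (SE 0.30 each).

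Array by array, the median of the progenitor genes stayed between 0.49 and 0.86, a span of 0.37, while Ighg3 spanned 3.25. In old marrow the progenitor median was 0.59, 0.50 and 0.80, beside Ighg3 at 0.03, 1.42 and 0.35. In young marrow it was 0.84, 0.78 and 0.86, beside 0.27, 0.58 and -0.53. In young bone it was 0.71, 0.49 and 0.67, beside -1.33, -0.02 and 1.92. Arrays with almost the same progenitor median, such as young bone replicates 1 and 3, thus held the lowest and the highest deposited Ighg3 ratio of the series. With replicate 3 turned, as in the channel reading, its Ighg3 is -1.92 and its progenitor median -0.67, so there the Ighg3 values are alike and the medians opposite.

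As a description over the 6 arrays of 1 layout, where both readings give the same values, Pearson's r between Ighg3 and the progenitor median was -0.02 and Spearman's rho 0.09. Without the 2 arrays farthest from the median of Ighg3, which are young bone replicate 1 and young marrow replicate 3, r was 0.95 over 4 arrays. Those 2 were picked by their Ighg3 values, so the 4 points left cannot decide whether Ighg3 follows the progenitor genes. Over the same 4 arrays r was also 0.81 for the mature B cell and the plasma cell median, and -0.57 for the erythroid median. Gene by gene, 6 of the 16 progenitor genes had a positive r over these arrays, and the values ran from -0.73 for Tcf3 (5 arrays) to 0.82 for Sox4 with a median of -0.13. Over all 9 arrays the r with the median was -0.27, but the arrays fall into the layouts described above. Under the channel reading it was 0.64, where turning 3 arrays moves both measures together. No p was computed for these relations, since both sides were chosen with earlier results of these data known.

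**Figure D4:**
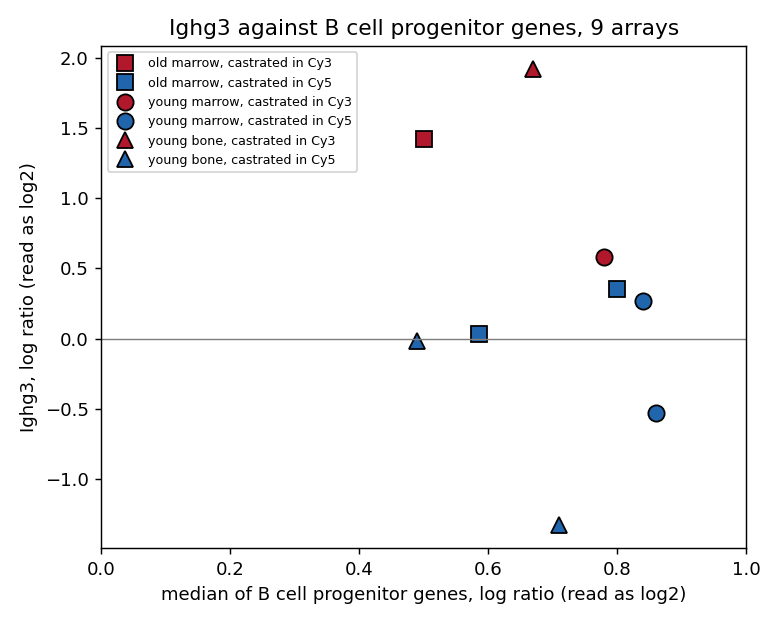
Ighg3 log ratio (vertical axis) against the median log ratio of the B cell progenitor genes (horizontal axis, both read as log2) on the 9 arrays; shape marks the group and colour the dye that labelled the castrated mouse. The progenitor median stays between 0.49 and 0.86 on every array while Ighg3 runs from -1.33 to 1.92, and the 3 arrays with the castrated mouse in Cy3 (red) have the highest Ighg3 values.

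Most genes of mature B cells lay above 0 in the average as castrated over sham. Of 12 tested, 4 rose in the average, against 2.01% of all features up: H2-Ob, a chain of the antigen-loading modulator of B cells (0.50), Ccr7, a homing receptor (0.48), H2-Eb1, a class II chain (0.37), and Cd22, an inhibitory coreceptor (0.35). Bcl6, the repressor of the germinal centre, was the 1 that fell (-0.31, against 2.03% of all features that were down). Bcl6 was negative on 9 of 9 arrays, as were 2.33% of features measured on all of them, and in young bone it fell by 0.59 (limma adjusted p = 0.020, against 0.0338% of features down there). The limma adjusted p of these 5 was at most 0.039. On the Cy5 arrays alone their limma adjusted p was 0.070 to 0.21, with values of 0.41 for Cd22 and H2-Ob, 0.33 for Ccr7, 0.30 for H2-Eb1 and -0.33 for Bcl6. Leaving out 1 array ended the call in 3 of 9 cases for H2-Ob, Ccr7 and Bcl6, in 4 for H2-Eb1 and in 7 for Cd22, young bone replicate 3 being among them for all 5 genes. The 7 genes that did not pass all lay above 0. The list median was 0.21, and per array it ran from -0.12 on young bone replicate 2 to 0.44 on old marrow replicate 3. Under the channel reading 0 of 12 passed, as did 0 of all 8885 features, and the list median was -0.03.

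The array with the lowest deposited Ighg3 also had the lowest ratio of skeletal muscle genes. The median of 6 tested skeletal muscle genes was -1.36 on young bone replicate 1, and -0.20 and -0.60 on young bone replicates 2 and 3. It was 1.04, 0.16 and 0.31 in old marrow and -0.03, 0.10 and -0.09 in young marrow. Over the 6 Cy5 arrays r with Ighg3 was 0.78 and rho 0.77, and without the 2 arrays farthest from the median of Ighg3 r was -0.14 (n = 4). Over all 9 arrays r was 0.26 and rho 0.30. The part of muscle RNA in the Ighg3 ratio was not tested.

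The genes whose ratios were most like Ighg3 were sought among 2753 named features of 2270 genes with 9 values and an SD of at least 0.2, by Pearson's r over the 9 deposited ratios. The highest were Rnf31, a ubiquitin ligase subunit (r = 0.92), Nav1, a cytoskeletal guidance protein (0.91), Uimc1, a DNA repair factor (0.90), Prg4, the joint lubricant lubricin (0.88), and the cytokine receptor kinase Jak2 (0.88). Ppil2 (0.87), Pnpla6 (0.86), Rmnd1 (0.85), the RNA-binding protein Hdlbp (0.84) and Pnisr (0.83) followed. The lowest were Hmgb1 (-0.88) and Hmgn1 (-0.81), both chromatin proteins, the import subunit Tomm5 (-0.87), the deubiquitinase Zup1 (-0.86) and the protein modifier Sumo2 (-0.83). Of these 15 genes 0 belonged to the B cell, plasma cell or immunoglobulin lists, and their SD across arrays was 0.21 to 0.28, against 0.97 for Ighg3. The median r was 0.04 and 1252 features had a negative r, and the 9 points share the dye layouts described above. Under the channel reading r was 0.02 for Rnf31, -0.09 for Hmgn1, -0.21 for Hmgb1 and -0.25 for Sumo2. It was 0.52 for Pnpla6 and 0.53 for Hdlbp. The other genes of high r ran from 0.76 for Ppil2 and Jak2 to 0.93 for Pnisr, and Tomm5 (-0.78) and Zup1 (-0.83) stayed low.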

How the data were processed

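The 9 two-colour arrays were deposited as a table of log ratios, entered as log2 although the base, the direction, the background correction and the normalization are not given in the sources used here. Features were named by the platform annotation, updated by gene ID: 8050 of 11552 had 1 gene symbol, 672 several and 2830 none. The 8885 features with a value on at least 2 arrays of each group and at least 1 array with the castrated mouse in Cy3 were fitted with limma 3.58.1 (R 4.3.3), with 1 coefficient per group and a dye layout term, with a Benjamini-Hochberg adjusted p of 0.05 over all of them as the threshold. P values measure the spread between arrays. A gene with several features was represented by the one with most values, then the lowest ID. In ratios simulated for the average over 8885 features, 200 shifted by 1 were recovered at 100%, with 5.21% of calls false. The simulated noise was independent between arrays and smaller than each feature's own SD, and no smaller shift was simulated. These rates therefore check the fit and do not give its error rates on the real arrays. Named genes were all antibody genes that a feature named alone and list members past the threshold or else with the smallest p. The genes of highest and lowest r with Ighg3 and those with the widest gaps were also named. The gene, the lists and the tests were chosen with earlier results of these data known. No sequence of Ighg3 was used here.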

Additional observations from a re-analysis of the deposited data

Results flagged for a closer look

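Groups of 3 arrays are too small for an outlier test. Cr2, the complement receptor of mature B cells, was 0.33, 0.39 and 0.45 in old marrow and -0.51, -0.13 and -0.02 in young bone, a difference of 0.61 between means, every array of each group lying on its own side of 0. The median of the skeletal muscle genes did the same, above 0 on the 3 old marrow arrays and below 0 on the 3 young bone arrays, with a difference of 1.22. The difference between these plain means was not tested, and the share of all features with such a split was not counted. Swap70, Fcer2a and Bcl6 of the mature B cell list also had every old marrow array above every young bone array, without the split at 0. Swap70 was 0.51, 0.67 and 0.65 in old marrow and -0.28, 0.07 and -0.29 in young bone, so the separation was not particular to Cr2. In the limma contrast of old marrow minus young bone, with the layout term, 0 of the 12 mature B cell genes and 0 of the 6 muscle genes passed.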

How the results depend on the processing

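Under the channel reading the mean of Ighg3 in old marrow was -0.35 against 0.60, its average -0.76 against 0.55, and its gap between layouts -1.10 against 1.51. On the Cy5 arrays alone, and without the Cy3 array of the group, the means were 0.19 in old marrow, -0.13 in young marrow and -0.675 in young bone, with the sign turned in young marrow (from all 3 arrays, 0.11) and young bone (0.19), and the average was -0.205. Without the layout term the average was 0.30. Leaving out 1 array gave means of 0.19 to 0.89 in old marrow, -0.13 to 0.43 in young marrow and -0.675 to 0.95 in young bone, and averages of 0.28 to 0.75. Centring or scaling the arrays left the average at 0.57 and 0.57, but scaling moved the means to 0.095 in young bone and 0.17 in young marrow, against 0.19 and 0.11 (0.65 in old marrow). The 359 features past the threshold became 0 under the channel reading and 86 on the Cy5 arrays, and 96 to 574 without 1 array. They were over 1.5 times fewer when the array left out was young marrow replicate 2 (96), old marrow replicate 2 (109), young bone replicate 3 (142), young marrow replicate 1 (177) or young marrow replicate 3 (219), and more without old marrow replicate 3 (574). The 12 progenitor genes became 0 under the channel reading, where their median was 0.0017, 10 with a median of 0.68 on the Cy5 arrays, and 10 to 12 without 1 array. The 1 plasma cell gene became 0 under the channel reading, on the Cy5 arrays and with features complete on 9 arrays, where Slamf7 is not fitted, and 0 to 1 without 1 array. The cause was not tested. With the replicate number as a block 411 features passed, the average of Ighg3 was 0.55 no count moved by over 1.5 times, and Herpud1 was lost (limma adjusted p = 0.064). Deviations of same-numbered arrays correlated at 0.27 to 0.60 between old and young marrow but at -0.37 to -0.08 between young marrow and young bone. The Cy3 array was replicate 2 in both marrow groups but replicate 3 in young bone, so the layout may enter these values. They cannot show whether young marrow and young bone came from the same mice. The numbers were not taken as pairs, and the main fit treats the 9 arrays as independent.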

Other observations

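Other marker lists had these medians in the average as castrated over sham: granulocyte -0.43 (7 of 7 genes down, against 2.03% of all features), monocyte and macrophage -0.40 (3 of 5 down), T and NK cell -0.14 (0 of 3), erythroid 0.03 (0 of 4), osteoblast and bone matrix 0.41 (0 of 5) and skeletal muscle -0.12 (0 of 6). The granulocyte and monocyte medians were below 0 on 9 of 9 arrays.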
